A study of Mus musculus with 4 samples.

Results

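ADAM genes encode membrane proteins with a disintegrin and a metalloprotease domain. The family was taken as every gene of the deposited expression table whose symbol is Adam followed by a number and, for some, the letter a or b, which leaves out the related Adamts genes. This gave 33 of 23980 genes. From general knowledge of where they are expressed, 20 members were classed as testis-restricted, 4 as widely expressed and 9 as other somatic members. The classes were set with earlier results of these data known, so they are not independent of the data. The testis-restricted class was divided into 10 sperm surface members, whose proteins or close relatives are known from the sperm plasma membrane, and 10 late members, the testases and similar genes known from late spermatogenic cells. Adam36, Adam37 and Adam38 were on the list of the late class and were not analysed here under these symbols, although RefSeq gives Adam38 as an older name of Adam20.

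The catalytically active ADAM proteins cut the outer parts of other membrane proteins off the cell, and ADAM10 and ADAM17 do this for Notch receptors, cytokines and growth factors in most tissues. The testis members are a large branch of the family in the mouse. ADAM1, ADAM2 and ADAM3 are made in germ cells, pass through a series of endoplasmic reticulum chaperones and end on the sperm head, where ADAM3 is needed for sperm to enter the oviduct and to bind the egg coat.

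The RNA came from leptotene/zygotene (L/Z) spermatocytes, germ cells in early meiotic prophase, sorted by FACS from mice aged 3 to 4 weeks. All animals were F1 hybrids of C57BL6/J and MSM/Ms, and polyA RNA was sequenced with strand information. There was 1 library each of Dnmt3L Het, Dnmt3L KO, Pld6 WT and Pld6 KO, and Dnmt3L Het and Pld6 WT together served as the controls (n = 2). Pld6 encodes a protein of piRNA production and Dnmt3l a cofactor of the enzymes that methylate DNA in male germ cells. The controls differed in genotype and in line, so their spread holds both, and each mutant had no replicate.

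The libraries held 30439943 (Pld6 KO) to 63875934 (Dnmt3L Het) fragments in genes, more than the read numbers the study's methods give for L/Z spermatocyte libraries, and the reason is not given in the sources used here. The targeted Pld6 had 0.334 FPKM (14 fragments) in the Pld6 KO library and 8.55 to 19.5 FPKM in the others, and Dnmt3l was at 0 fragments in Dnmt3L KO and at 0.432 to 1.27 FPKM elsewhere. Marker RNA of several cell types differed between the libraries. The summed FPKM of 10 early meiotic (L/Z) markers was 1327 in Dnmt3L Het, 2364 in Pld6 WT, 818 in Dnmt3L KO and 1353 in Pld6 KO, and all 10 were detected in every library. The 9 pachytene markers summed to 833, 457, 44.5 and 47.6 FPKM in the same order, with none at 0 fragments. The 10 spermatid markers summed to 7077, 164, 28.6 and 11.2 FPKM, a 43.0-fold difference between the controls, with 1 marker at 0 fragments in Pld6 KO. The 10 Sertoli cell markers summed to 3280, 114, 4672 and 295 FPKM, so RNA of these markers stood out in both libraries of the Dnmt3L line. The 9 spermatogonia markers were between 189 and 319 FPKM, the 6 Leydig cell markers between 24.9 and 326, the 7 macrophage markers in the table between 19.1 and 99.9, and the 8 peritubular and vascular markers between 105 and 476. In sorted bulk RNA, fewer cells of a type and less RNA per cell cannot be told apart.

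Promoter sequences are shown for Adam10, a widely expressed member, and for Adam1b and Adam20, of which the first is a sperm surface and the second a late member, as examples of the matched start sites. Each runs 5′ to 3′ on the gene's strand from 250 bases before to 50 bases after the RefSeq start in GRCm38.p6, and capitals mark the CpG dinucleotides, the sites at which DNA methylation is set. Adam10 lies at chr9:70678732-70679031 (plus strand), Adam1b at chr5:121503386-121503685 (minus strand) and Adam20 at chr8:40793023-40793322 (plus strand).
Adam10: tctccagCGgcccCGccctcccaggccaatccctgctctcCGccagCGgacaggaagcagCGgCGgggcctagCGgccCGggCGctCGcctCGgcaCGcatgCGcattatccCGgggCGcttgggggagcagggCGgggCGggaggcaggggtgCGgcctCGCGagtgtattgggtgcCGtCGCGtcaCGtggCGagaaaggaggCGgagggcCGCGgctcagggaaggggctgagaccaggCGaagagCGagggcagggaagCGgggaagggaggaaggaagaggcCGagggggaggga
Adam1b: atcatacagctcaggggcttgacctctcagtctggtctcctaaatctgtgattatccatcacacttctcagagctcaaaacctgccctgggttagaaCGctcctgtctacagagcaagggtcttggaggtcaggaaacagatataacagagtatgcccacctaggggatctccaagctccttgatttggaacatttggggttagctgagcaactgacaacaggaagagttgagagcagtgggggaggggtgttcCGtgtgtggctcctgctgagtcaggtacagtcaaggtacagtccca
Adam20: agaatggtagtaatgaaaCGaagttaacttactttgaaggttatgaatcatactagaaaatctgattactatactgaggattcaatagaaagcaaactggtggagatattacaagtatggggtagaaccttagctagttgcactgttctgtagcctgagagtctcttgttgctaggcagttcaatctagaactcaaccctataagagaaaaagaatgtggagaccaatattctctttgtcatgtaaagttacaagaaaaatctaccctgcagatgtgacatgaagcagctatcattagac

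The Adam10 window held 32 CpG sites, that of Adam1b 2 and that of Adam20 1. A RefSeq promoter was matched for 17 of the 33 members, and for only 10 of the 20 testis-restricted ones, so a comparison of whole classes is void and the following are values of the matched members. The 10 testis-restricted members had 0 to 4 CpG sites, and the 3 matched widely expressed members (Adam10, Adam15 and Adam17) had 25 to 32. The 4 matched other somatic members, with 6 promoters between them, had 5 to 31. Among all 32851 promoters of this length the median was 7 sites, 38.0% had 0 to 4 and 18.4% had 25 or more. The TATA box TATAAA, searched on both strands, occurred in Adam29, Adam6a and Adam6b and in 13.6% of all promoters. The core of the cAMP response element, TGACGT, occurred in no matched member and in 7.51% of all promoters, and AACNGNC, a core that MYB proteins bind, occurred in 8 members (Adam1b, Adam6a, Adam6b, Adam20, Adam25 and Adam29 of the testis class, Adam8 and Adam15 of the somatic classes) and in 32.8% of all. These are matches of letters in a window and were not tested for binding.

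The testis-restricted members made up most of the family's RNA in the controls and almost none of it in the mutants. Their summed level was 296 FPKM in Dnmt3L Het and 196 in Pld6 WT, 73.6% and 64.5% of the summed level of all 33 members. In Dnmt3L KO it was 5.64 FPKM (3.73% of the family) and in Pld6 KO 2.58 FPKM (1.58%). The 4 widely expressed members summed to 96.0 FPKM in Dnmt3L Het, 95.7 in Pld6 WT, 133 in Dnmt3L KO and 145 in Pld6 KO. The other somatic members summed to 9.90, 12.1, 13.1 and 15.3 FPKM in that order. FPKM is scaled to transcript length, so these levels can be set beside each other.

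**Figure D1:**
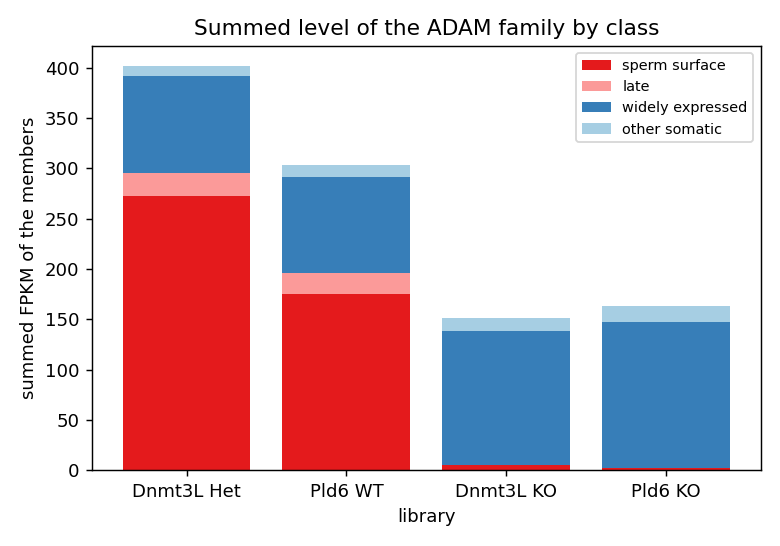
Summed FPKM of the ADAM members (vertical axis) in each of the 4 libraries (1 bar per library, no error bar), divided by class. The testis-restricted classes (red and pink) stand at 296 and 196 FPKM in the controls and at 5.64 and 2.58 in the mutants, and the widely expressed members (dark blue) lie between 95.7 and 145.

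**Figure D2:**
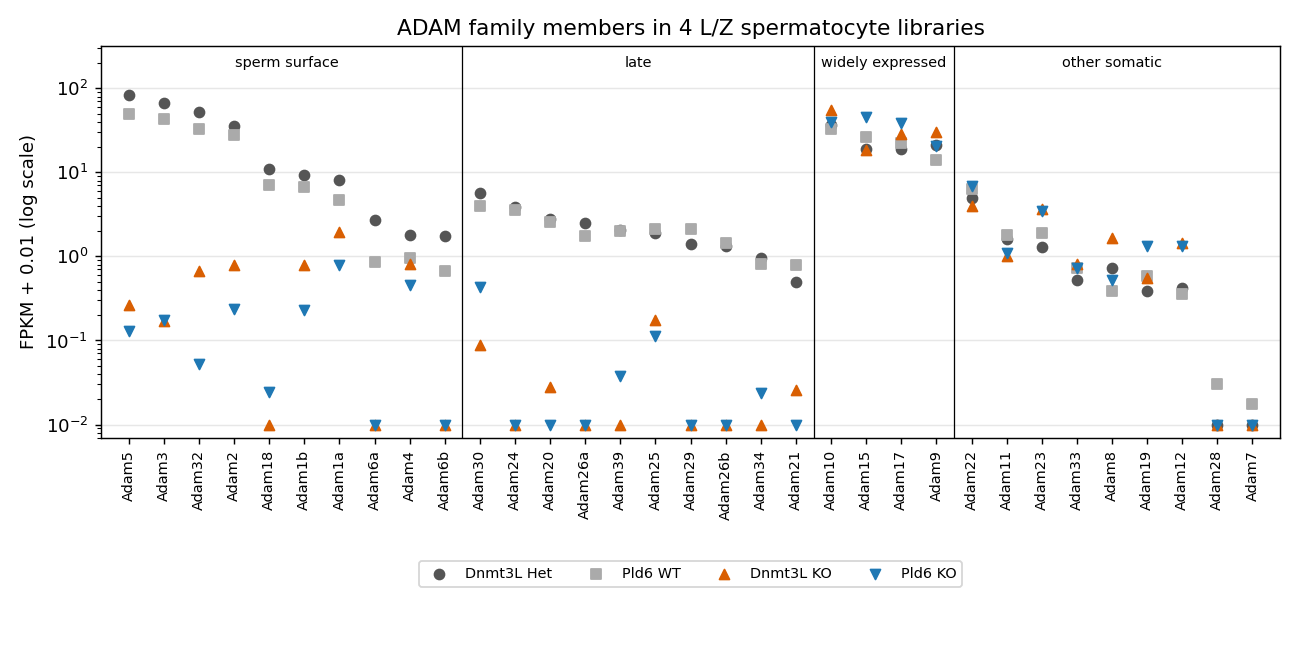
FPKM + 0.01 on a log axis of each of the 33 ADAM members in the 4 libraries, 1 point per library, ordered by class and by the mean of the controls. In all 20 testis-restricted members both mutants (triangles) lie below both controls (circle and square), while no somatic member was more than 2-fold beyond both controls on the FPKM + 1 scale.

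For each mutant a member was counted as lower or higher when its FPKM + 1 differed by more than 2-fold from each of the controls, in the same direction. In Pld6 KO 15 of the 20 testis-restricted members were lower (7 sperm surface and 8 late) and 0 were higher. Over all 23980 genes this rule gave 5.41% lower and 1.04% higher. In Dnmt3L KO 14 of the 20 were lower and 0 higher, against 5.78% lower and 2.14% higher of all genes. None of the 13 somatic members was counted in either direction in either mutant. The 14 members counted in Dnmt3L KO were all counted in Pld6 KO, but the mutants were compared with the same controls. A gene under 1 FPKM in a control cannot be counted as lower. This was the case for Adam4, Adam6a, Adam6b, Adam21 and Adam34 of the testis-restricted class. It was also the case for the somatic members Adam7, Adam8, Adam12, Adam19, Adam28 and Adam33, so only 7 of the 13 somatic members could have been counted as lower. Of the 15 testis-restricted members above 1 FPKM in both controls, 15 were lower in Pld6 KO and 14 in Dnmt3L KO, against 9.96% and 10.6% of all genes above that level. All 20 members lay below both controls in both mutants. The median log2 change from the mean of the controls, on the log2(FPKM + 1) scale, for the testis-restricted members was -1.76 (Pld6 KO) and -1.62 (Dnmt3L KO), with 0.54 and 0.55 for the widely expressed members, 0.08 and 0.07 for the other somatic members, and 0 for all genes. With 0.1 added to FPKM in place of 1, the testis-restricted medians were -4.22 and -4.32.

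The mutants were also tested together, each set against the control of its own line in 1 additive model (edgeR's quasi-likelihood test, Benjamini-Hochberg adjustment over 17686 genes). This model takes the different mutants, with 1 library each, as replicates of 1 mutant group. Its spread is the difference between the effects in the lines, so it does not measure the spread between replicates of either mutant. By this test 17 of the 20 testis-restricted members fell, with adjusted p-values from 0.000250 to 0.0331. Over all genes tested, 5.98% were lower and 0.741% higher at an adjusted p under 0.05. The 3 that did not pass were Adam34 (adjusted p = 0.0534), Adam21 (0.0925) and Adam4 (0.459). All 20 had passed the filter on low counts, to which the controls' fragments alone sufficed. Of the 13 somatic members, 11 passed that filter and 0 were called by edgeR, with adjusted p-values from 0.0839 to 0.923. Adam12, Adam17 and Adam23 had an unadjusted p under 0.05 and were higher, as were 7.62% of all genes. In the same design DESeq2 called 1 somatic member (Adam12) higher, beside 2.74% of all genes, and 18 testis-restricted members lower, beside 6.95%.

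With the controls as 1 group and no term for line, edgeR called 0 members in either mutant, as it called 0% of all genes in each (0% Pld6 KO, 0% Dnmt3L KO). The lowest adjusted p-value of a testis-restricted member was 0.102 (Pld6 KO) and 0.0967 (Dnmt3L KO). At an unadjusted p under 0.05 this test gave 19 testis-restricted members lower in Pld6 KO, beside 7.41% of all genes, and 18 in Dnmt3L KO, beside 7.72%. DESeq2 gave 18 (beside 4.65% of all genes lower) and 16 (4.47%) in this design, and 0 somatic members in both. The spread in this model came from Dnmt3L Het against Pld6 WT alone, with a biological coefficient of variation of 0.589, against 0.382 with the line term. Both models had 1 residual degree of freedom. With a control left out, each comparison was of 1 library against 1, and the spread used still held the control left out. The counts that follow therefore cannot show that the calls hold without that control. Without Dnmt3L Het, and with the spread taken from the additive model, 19 testis-restricted members were called lower in Pld6 KO (6.28% of all genes) and 18 in Dnmt3L KO (9.70%). Without Pld6 WT these counts were 19 (14.4% of all genes) and 17 (7.88%).

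**Figure D3:**
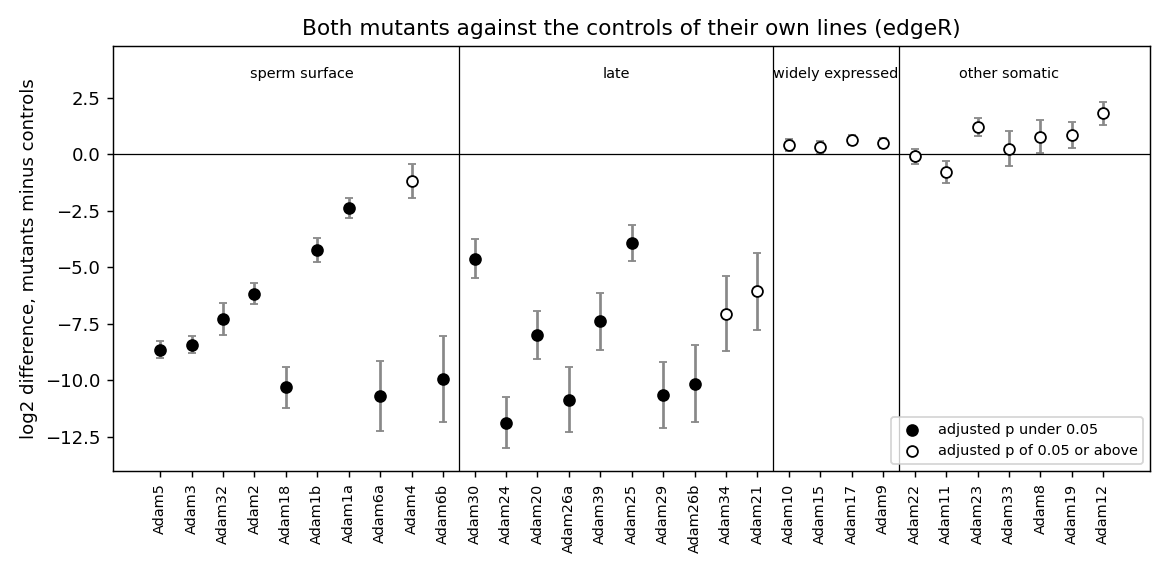
Log2 difference of both mutants from the controls of their own lines with its standard error (edgeR, additive model with line) for the 31 ADAM members that passed the filter on low counts. Filled points have an adjusted p under 0.05, and these are 17 testis-restricted members and no somatic one. For members at 0 fragments in a mutant the height depends on the prior count.

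Adam5 and Adam3 were the most abundant members of the family in both controls. ADAM3 is the sperm protein named above, and ADAM5 is a related sperm membrane protein. Adam5 was at 83.7 FPKM in Dnmt3L Het, 49.9 in Pld6 WT, 0.258 in Dnmt3L KO and 0.120 in Pld6 KO. Adam3 was at 66.7, 42.8, 0.160 and 0.164 FPKM in the same order. In both genes the mutants lay far below the controls, which differed by less than 2-fold. Adam5 was below the lower control by 417-fold (Pld6 KO) and 194-fold (Dnmt3L KO), and Adam3 262-fold and 268-fold. Their log2 differences in the additive edgeR model were -8.63 ± 0.35 and -8.42 ± 0.37 (SE), both with an adjusted p of 0.000250.

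Adam32 and Adam2 were the next sperm surface members in level. ADAM2 pairs with ADAM1 on the sperm surface and is also called fertilin beta, and ADAM32 is a sperm membrane member without a known protease function. Adam32 was at 51.7 FPKM in Dnmt3L Het, 33.0 in Pld6 WT, 0.667 in Dnmt3L KO (71 fragments) and 0.0421 in Pld6 KO (3 fragments). Adam2 was at 36.0, 28.2, 0.790 and 0.228 FPKM. Both mutants were below both controls, and Dnmt3L KO lay above Pld6 KO. The ratio of Dnmt3L KO to Pld6 KO was 15.8 for Adam32 (95% counting interval 5.20 to 78.6) and 3.46 for Adam2 (2.04 to 6.21). The level left in Pld6 KO was 0.128% of the lower control for Adam32 (0.0263 to 0.373%) and 0.808% for Adam2. Such intervals and the limits given for a count of 0 cover counting error only. In the additive edgeR model Adam2 differed by -6.16 ± 0.47 (SE) on the log2 scale (adjusted p = 0.000716) and Adam32 by -7.28 ± 0.70 (adjusted p = 0.00152).

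Adam1a and Adam1b, neighbouring single-exon genes of chromosome 5, encode ADAM1 isoforms that pair with ADAM2. Adam1b was at 9.38 FPKM in Dnmt3L Het, 6.71 in Pld6 WT, 0.771 in Dnmt3L KO and 0.223 in Pld6 KO. Adam1a was at 8.09, 4.72, 1.92 and 0.775 FPKM. Adam1a kept more of its level than the other abundant sperm surface members, with 40.6% of the lower control in Dnmt3L KO (counting interval 35.0 to 47.1%) and 16.4% in Pld6 KO (12.6 to 21.0%). It was the member counted as lower in Pld6 KO only. Whether its change differed between the mutants was not tested, since each has 1 library. Adam1a shared 30.9% of its 50-base windows with Adam1b and overlapped the gene Gm42878 on its own strand, so reads of these genes may have been split in counting.

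Adam18 was at 10.9 FPKM (1524 fragments) in Dnmt3L Het and 7.01 (616) in Pld6 WT, with no fragment (0) in Dnmt3L KO and only 1 in Pld6 KO. At a limit of 3 fragments for a count of 0, it was at least 239-fold lower in Dnmt3L KO than in the lower control. In Pld6 KO 0.209% of the lower control was left (counting interval 0.00527 to 1.17%). Adam6a and Adam6b, a pair of nearly identical genes of chromosome 12, were at 0 fragments in both mutants. Adam6a had 2.71 FPKM in Dnmt3L Het and 0.852 in Pld6 WT, and Adam6b 1.73 and 0.653, the largest ratios between the controls in the testis-restricted class (3.18 and 2.65). They shared 29.5% and 29.6% of their 50-base windows with each other. Adam4 had the smallest differences of the sperm surface members. It was at 1.81 FPKM in Dnmt3L Het, 0.958 in Pld6 WT, 0.803 in Dnmt3L KO and 0.445 in Pld6 KO, and its level in Dnmt3L KO lay within counting error of Pld6 WT at 83.8% (61.0 to 115%).

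**Figure D4:**
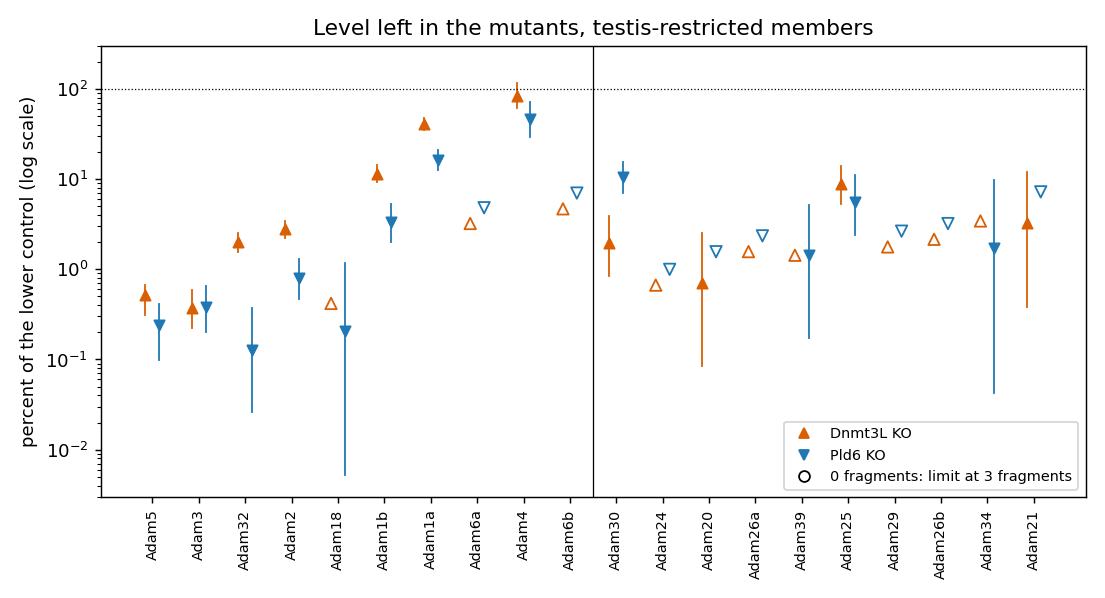
FPKM of each testis-restricted member in the mutants as a percent of the lower of both controls (log axis), with sperm surface members left and late members right of the line. Vertical bars are 95% counting intervals, and open symbols mark 0 fragments and stand at the limit of 3 fragments. As drawn, 14 of the 20 members lie under 5% in Pld6 KO and 16 in Dnmt3L KO, Adam1a lies at 16.4 and 40.6% and Adam4 at 46.4 and 83.8%. No share of all genes is given for the 5% limit.

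The late members were less abundant in the controls, from 0.483 to 5.61 FPKM, and their summed level was 22.9 FPKM in Dnmt3L Het, 21.0 in Pld6 WT, 0.277 in Dnmt3L KO and 0.570 in Pld6 KO. Adam24, testase 1, was at 3.89 FPKM (674 fragments) in Dnmt3L Het and 3.55 (386) in Pld6 WT and at 0 fragments in both mutants. It was at least 149.8-fold lower in Dnmt3L KO and at least 100.2-fold lower in Pld6 KO than in the lower control. Adam26a, Adam26b and Adam29 were also at 0 fragments in both mutants and at 1.34 to 2.48 FPKM in the controls. Of the 20 testis-restricted members, 6 had no fragment in either mutant, these 4 late members and the Adam6 pair. Adam20 had 433, 246, 2 and 0 fragments in Dnmt3L Het, Pld6 WT, Dnmt3L KO and Pld6 KO, and Adam39 302, 180, 0 and 2.

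Adam30 and Adam25 were the late members with most fragments left. Adam30, a single-exon gene, was at 5.61 FPKM in Dnmt3L Het, 3.97 in Pld6 WT, 0.0781 in Dnmt3L KO (8 fragments) and 0.423 in Pld6 KO (29 fragments). It lay the other way from Adam32 and Adam2, with a ratio of Dnmt3L KO to Pld6 KO of 0.185 (counting interval 0.0729 to 0.414). Adam25 was at 1.87, 2.12, 0.166 and 0.104 FPKM, 8.85% and 5.57% of the lower control in Dnmt3L KO and Pld6 KO. Adam34 and Adam21 were under 1 FPKM in both controls and had 0 to 2 fragments in the mutants. When the mutants were compared with each other by the 2-fold rule on FPKM + 1, 0 members were higher in Dnmt3L KO than in Pld6 KO, against 9.43% of all genes, and only Adam15 was lower, against 4.28%.

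The controls themselves differed over the family. Of the 20 testis-restricted members 16 were higher in Dnmt3L Het than in Pld6 WT, with ratios from 0.627 to 3.18 and a median of 1.40. By the 2-fold rule 1 member, Adam6a, was higher in Dnmt3L Het, against 11.1% of all genes, and 0 were lower, against 3.77%. The summed FPKM of the pachytene markers was 1.82-fold and that of the spermatid markers 43.0-fold higher in Dnmt3L Het. These folds do not hold for each marker. Most of the spermatid sum in Dnmt3L Het came from Prm1, Prm2, Tnp1 and Tnp2, and most of the pachytene sum from Ldhc. Spaca1 was at 21.7 FPKM in both controls. Izumo1 (4.62 FPKM in Dnmt3L Het, 5.57 in Pld6 WT), Mybl1 (13.7 and 24.7) and Piwil1 were lower in Dnmt3L Het. In the mutants the pachytene sum was at 7.39% (Pld6 KO) and 6.91% (Dnmt3L KO) of the mean of the controls. Of the single pachytene markers 6 of 9 were counted as lower in each. The spermatid sum was at 0.309% and 0.791%, with 10 of 10 and 9 of 10 markers lower. The sum of the testis-restricted ADAM members was at 1.05% and 2.30%. In the study, wild-type testes also held spermatids, whereas testes of both mutants held only spermatogonia and spermatocytes up to zygotene. The study gives cell death at late zygotene as the reason. The part of pachytene and later cells in the fall of the testis-restricted members was not tested.

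On chromosome 8 lay 13 members, 12 of them testis-restricted. In the GRCm38.p6 annotation Adam18, Adam3, Adam5, Adam32 and Adam9 followed each other on the minus strand within 415 kb (chr8:24602246-25017040). Adam32 and Adam9 were 0.693 kb apart. The 4 sperm surface genes of this row fell in the additive edgeR model, whereas Adam9 was at 21.3 FPKM in Dnmt3L Het, 14.2 in Pld6 WT, 30.3 in Dnmt3L KO and 20.8 in Pld6 KO. Adam9 was not counted as changed in either mutant, although Dnmt3L KO was at 213% of Pld6 WT, the lower control. Its log2 difference was 0.50 ± 0.24 (SE, adjusted p = 0.307 by edgeR). Adam24, Adam25, Adam20 and Adam39 lay within 152 kb of the plus strand and Adam26b, Adam26a and Adam34 within 146 kb of the minus strand.

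**Figure D5:**
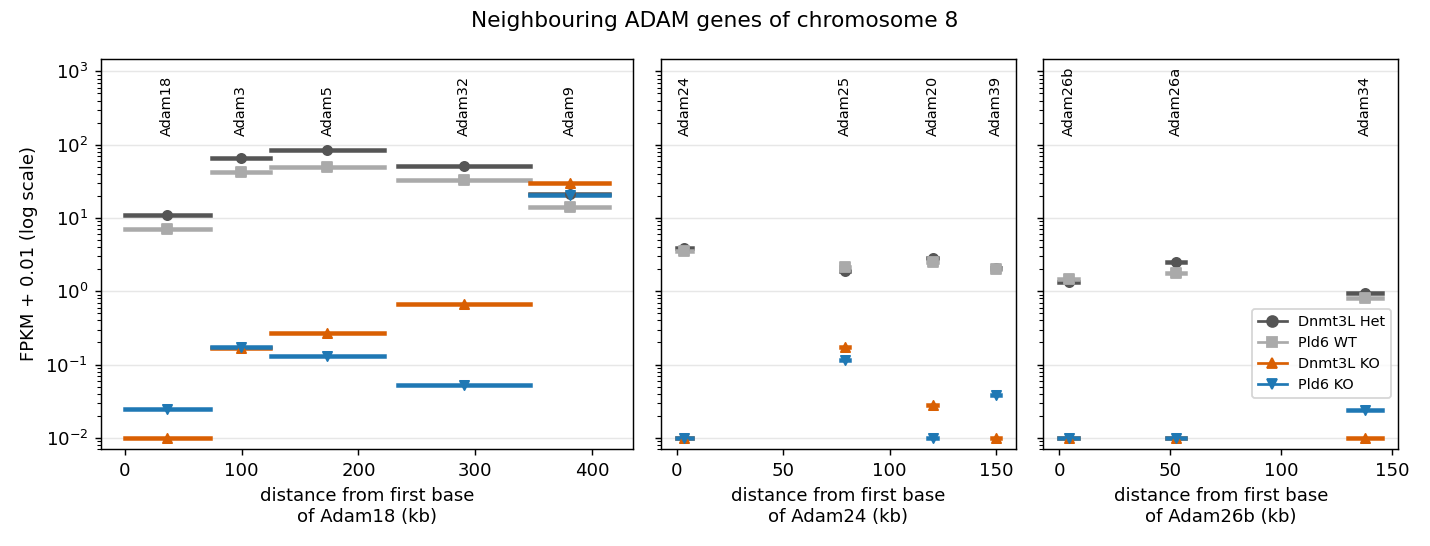
FPKM + 0.01 (log axis) of neighbouring ADAM genes in 3 stretches of chromosome 8, each gene drawn as a line over its annotated extent, against the distance in kb from the first base of the stretch. Adam18, Adam3, Adam5 and Adam32 lie at or under 0.667 FPKM in both mutants, and the adjoining Adam9 lies between 14.2 and 30.3 FPKM in all 4 libraries.

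The classes also differed in gene structure. The longest GENCODE transcript had 1 to 4 exons in the late members and 16 to 30 in the somatic members, and the sperm surface members were split into 5 with 1 exon and 5 with 20 to 22. Members of both structures fell. Between members or with other genes, 11 members shared more than 10% of their 50-base windows, all of them testis-restricted, and reads from such windows cannot be assigned to 1 gene. Of the 9 testis-restricted members that shared no window with any gene, 8 were lower than both controls in each mutant by the 2-fold rule.

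The widely expressed members were detected at 14.2 FPKM or more in every library. Adam10, the main sheddase of Notch and cadherins, was at 36.9 FPKM in Dnmt3L Het, 32.5 in Pld6 WT, 55.2 in Dnmt3L KO and 40.3 in Pld6 KO. Adam17, which releases tumour necrosis factor and growth factors of the EGF family, was at 18.9, 22.6, 28.8 and 38.8 FPKM. In both genes the mutants lay above both controls, and neither gene was counted as higher. Adam17 in Pld6 KO was beyond 2-fold of Dnmt3L Het only, at 205% of that lower control. The log2 difference of Adam17 in the additive edgeR model was 0.65 ± 0.23 (SE, adjusted p = 0.188) and that of Adam10 0.41 ± 0.25 (adjusted p = 0.433). Adam15, a widely expressed member that binds integrins, was at 19.0 FPKM in Dnmt3L Het, 26.3 in Pld6 WT, 18.5 in Dnmt3L KO and 45.3 in Pld6 KO. Only Pld6 KO stood above the controls in Adam15, and the ratio of Dnmt3L KO to Pld6 KO was 0.401 (counting interval 0.381 to 0.422).

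Among the other somatic members, Adam12, a member of muscle and mesenchymal cells, had the largest log2 difference in the additive model. It was at 0.412 FPKM in Dnmt3L Het (200 fragments), 0.352 in Pld6 WT (107), 1.44 in Dnmt3L KO (511) and 1.30 in Pld6 KO (309). Both mutants were above both controls, with a log2 difference of 1.82 ± 0.49 (SE) that did not pass the adjusted threshold (adjusted p = 0.0839, edgeR) but did by DESeq2 (0.0168). Adam23, an integrin ligand best known from the nervous system, was at 1.30, 1.91, 3.65 and 3.44 FPKM, also with both mutants above both controls (adjusted p = 0.155). Adam22, a catalytically inactive relative that binds LGI1 in the brain, was the most abundant of this class at 3.99 to 6.91 FPKM and its groups overlapped. Adam8, a member of myeloid cells, was at 0.712, 0.381, 1.63 and 0.512 FPKM, and so highest in Dnmt3L KO, where the macrophage markers were highest too (99.9 FPKM against 19.1 to 49.0 elsewhere). The part of macrophages in it was not tested. Adam11 (1.01 to 1.79 FPKM), Adam19 (0.377 to 1.31) and Adam33 (0.520 to 0.797) were not called. Adam7, an epididymal member, and Adam28 had 0 to 2 fragments in every library, so no change could be measured. Without Dnmt3L Het as a control, 1 somatic member was more than 2-fold higher in Dnmt3L KO (12.1% of all genes) and 0 in Pld6 KO (4.69%). Without Pld6 WT these counts were 1 (3.00% of all genes) and 2 (5.55%).

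Of 14 genes known as partners of sperm ADAM proteins, 5 were lower by the 2-fold rule in each mutant and 0 were higher, beside the shares of all genes given above. Without the 2-fold limit, 11 lay below both controls in each mutant, against 6599 (Pld6 KO) and 6861 (Dnmt3L KO) of all 23980 genes. Above both controls lay 2 in Pld6 KO and 0 in Dnmt3L KO, against 6338 and 6967. The median log2 change of the list was -0.98 (Pld6 KO) and -1.22 (Dnmt3L KO). Clgn, the chaperone calmegin needed for the pairing of ADAM1 and ADAM2, was at 90.8 FPKM in Dnmt3L Het, 64.0 in Pld6 WT, 11.5 in Dnmt3L KO and 12.5 in Pld6 KO. Pdilt, a testis disulfide isomerase homologue on which ADAM3 depends, was at 8.19, 7.00, 0.0109 and 0 FPKM. Both genes were far lower in the mutants, and their log2 differences in the additive edgeR model were -2.70 and -9.99 (adjusted p = 0.00182 and 0.00101). Lypd4 was at 87.6, 58.7, 1.98 and 8.76 FPKM, and Tmem190 at 14.1, 10.9, 0 and 0 FPKM. They encode sperm membrane proteins, and both fell (adjusted p = 0.0111 and 0.00835). Pmis2 was at 22.3, 5.40, 7.15 and 1.57 FPKM, and so counted as lower in Pld6 KO only. Tex101 was the fifth gene counted in Dnmt3L KO and Prss37 the fifth called by the additive model, of 13 tested, beside 5.98% of all genes lower. Both were named after their values were seen. The controls differed widely for Prss37, at 23.2 FPKM in Dnmt3L Het and 0.928 (32 fragments) in Pld6 WT, with 0 in both mutants. DESeq2 called 6 partners lower in the additive design, beside 6.95% of all genes. Against Dnmt3L Het alone, without Pld6 WT, 8 partners were lower in Pld6 KO (13.4% of all genes) and 10 in Dnmt3L KO (8.22%). Against Pld6 WT alone, without Dnmt3L Het, 5 were lower in each (6.46% and 8.75% of all genes) and 1 was higher in Pld6 KO (4.69%).

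Of 15 regulators of ADAM10 and ADAM17, among them the iRhoms that carry ADAM17 to the surface, the tetraspanins that do so for ADAM10 and the TIMP inhibitors, 0 were counted in either direction in either mutant. The additive edgeR model called 0 of the 15, beside 5.98% of all genes lower and 0.741% higher. At an unadjusted p under 0.05 it gave 5 higher, beside 7.62% of all genes. DESeq2 called 3 higher in the same design, beside 2.74% of all genes. Their summed level was 362 FPKM in Dnmt3L Het, 150 in Pld6 WT, 460 in Dnmt3L KO and 259 in Pld6 KO, and so was highest in the libraries with most Sertoli cell marker RNA. Timp2, named after its values were seen, was at 115, 8.01, 160 and 32.9 FPKM. Without Dnmt3L Het, 6 of the 15 were higher in Dnmt3L KO, beside 12.1% of all genes, and 3 in Pld6 KO, beside 4.69%. Without Pld6 WT, 1 was higher in Dnmt3L KO (3.00% of all genes) and 2 in Pld6 KO (5.55%), and 4 were lower in Pld6 KO (13.4%). The part of Sertoli cells in these levels was not tested.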

How the data were processed

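PolyA RNA of FACS-purified L/Z spermatocytes was measured in 4 libraries. The authors sequenced 50 bp single-end reads, aligned them with TopHat and quantified genes with Cuffdiff on mm10, per the submitters' processing notes, with versions not given in the sources used here. The deposited table gives estimated counts, the fragments of each gene in each library (97.3 to 97.4% within 1e-06 of a whole number). It also gives the deposited signal of scaled fragments, from which Cuffdiff's scaling factor was read, and deposited FPKM, the estimated count scaled by the authors to length and depth. All reads of the F1 hybrids were counted against 1 reference.

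Counts were rounded and tested with edgeR 4.0.16 (quasi-likelihood, TMM, filterByExpr, Benjamini-Hochberg adjustment at 0.05) in R 4.3.3, once in 3 groups and once with line (Dnmt3L or Pld6, from the genotype labels) as an additive term. DESeq2 1.42.0 was an alternative. Cuffdiff itself was not rerun. Of the 33 members, 31 passed the filter. In simulated data with the spread between the controls, 200 of 18657 genes, chosen above a minimum level, were changed alike in both mutants. At 4-, 16- and 64-fold the 3-group fit recovered 0, 65 and 182 of them in Pld6 KO, and the additive fit 0, 125 and 200. At a low spread both fits recovered 200 at every fold. The additive fit of the real data had a smaller spread than simulated first (biological coefficient of variation 0.382 against 0.589), so those values do not give its power. A permutation test of 2 against 2 libraries cannot go below p = 0.333 (exact, two-sided), so none was used. Standard errors were taken from the log2 difference and its F statistic. Folds are of FPKM, and changes are log2(FPKM + 1), which understates changes of low genes. Exact binomial intervals (95%) and the floor of 3 fragments describe counting error. Nothing says whether a library came from 1 animal or several, so the spread between libraries may be technical in part.

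Promoters came from RefSeq (GRCm38.p6), transcripts and shared 50-base windows from GENCODE M21. All members could be named, and of the partner and regulator lists the 5 furthest beyond both controls. The members, the classes and all lists (sperm ADAM partners, ADAM10 and ADAM17 regulators, and markers of spermatogonia, L/Z, pachytene, spermatid, Sertoli, Leydig, macrophage, and peritubular and vascular cells) were chosen with earlier results of these data known. Alternatives were other normalization, filter, tool, pseudocount, scaling, fold threshold and class, and each control left out.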

Additional observations from a re-analysis of the deposited data

Results flagged for a closer look

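In 2 members with a mean level of at least 1 FPKM, the log2 change had opposite signs in the lines. The log2 change of Adam15 was 0.76 in Pld6 KO against Pld6 WT and -0.03 in Dnmt3L KO against Dnmt3L Het. In the Dnmt3L line Adam15 thus hardly moved, at 97.8% of its level in Dnmt3L Het. That of Adam22 was 0.12 and -0.26. Each genotype had 1 library, so these differences between the lines were not tested.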

How the results depend on the processing

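No value called by a rule or test reversed its direction under the alternatives run. With a control left out, log2 changes near 0 of uncalled members did change sign, which ranged from -0.18 to 0.13 for Adam8, from -0.03 to 0.52 for Adam9 and from -0.0042 to 0.17 for Adam33 in Pld6 KO, and from -0.02 to 0.17 for Adam19 in Dnmt3L KO. Of the values that answer a comparison, 125 stayed within the limits set for them and 52 moved. The counts of testis-restricted members beyond 2-fold kept within 1.5 times under every alternative except a 3-fold threshold in Dnmt3L KO, with 9 lower. With 0.1 FPKM as pseudocount the testis-restricted medians were -4.22 (Pld6 KO) and -4.32 (Dnmt3L KO), the widely expressed median in Dnmt3L KO was 0.57, and 2 somatic members were higher in each mutant. No share of all genes is given here for this pseudocount or for the 3-fold threshold. These counts therefore cannot be set against a background. A filter at a mean of 0.5 FPKM gave a testis-restricted median of -1.95 in Pld6 KO. With all somatic members as the class, the medians were 0.22 (Pld6 KO) and 0.15 (Dnmt3L KO). Scaling by total fragments gave 0.47 and by TMM 0.54 for the widely expressed members in Dnmt3L KO. As the table has no effective lengths, both scalings were made by rescaling FPKM per library, chosen after seeing the data.

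The tests with the controls as 1 group moved most. Without a filter on low counts, 429 genes were lower and 8 higher in Pld6 KO and 423 and 6 in Dnmt3L KO, among them 10 and 13 testis-restricted members. DESeq2 gave 957 lower and 15 higher in Pld6 KO and 919 and 17 in Dnmt3L KO, with 18 and 16 testis-restricted members, against 0 by edgeR. In the additive design higher genes numbered 131 in edgeR, 224 without the filter and 563 by DESeq2. With either control left out, by a likelihood ratio test with the spread of the additive model (chosen after seeing the data), Pld6 KO had 1110 to 2549 genes lower and 441 to 778 higher, and Dnmt3L KO 1394 to 1715 lower and 247 to 2118 higher. The testis-restricted members lower were then 19 to 19 in Pld6 KO and 17 to 18 in Dnmt3L KO. The spread used for these counts still held the control left out. The cause was not tested.

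With either control left out, the testis-restricted median in Dnmt3L KO ranged from -1.85 to -1.60. The widely expressed median ranged from 0.53 to 0.54 in Dnmt3L KO and from 0.56 to 0.64 in Pld6 KO. Somatic members higher were 1 to 1 in Dnmt3L KO and 0 to 2 in Pld6 KO. Partners lower were 5 to 10 in Dnmt3L KO and 5 to 8 in Pld6 KO, and partners higher 0 to 1 in Pld6 KO. Regulators higher were 1 to 6 in Dnmt3L KO and 2 to 3 in Pld6 KO, and regulators lower 0 to 4 in Pld6 KO. No paired analysis was possible because the labels carry no replicate numbers, apart from the additive model, which sets each mutant beside the control of its own line and has no residual degree of freedom once a library is left out. Depth limits Adam7 and Adam28, at or near 0 fragments everywhere, and the size of the fall of members at 0 fragments in a mutant.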
